A study of Mus musculus with 24 samples.

Results

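Nuclear genes of oxidative phosphorylation were followed in motor and sensory nerve of C57BL/6 mice during postnatal development. Efferent fibres (EN) came from the ventral roots and afferent fibres (AN) from the dorsal roots of segments L4–L6. The members were gene probes whose name on the array begins as a subunit of 1 of the 5 respiratory complexes does, namely Nduf with a subunit letter and number, Sdha to Sdhd, Uqcr, Cox4 to Cox8 or Atp5. Of 84 gene names that match, 83 became members, having a probe that the scanner marked well above background on each of the 3 arrays of some group, and Cox8c alone did not. Each member was represented by its probe with the highest mean over all arrays, out of 122 tested probes of these names. The whole array gave 36409 tested probes under 23864 gene names. The members comprise 35 names of complex I, 4 of complex II, 8 of complex III, 18 of complex IV and 18 of complex V.

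The 8 groups were EN and AN, each on the day of birth (P0) and at an age of 1, 3 or 5 weeks (written 1 W, 3 W and 5 W), with 3 one-colour arrays per group and 24 in all. No mutation, transgene or treatment was given to any group. The study's methods state that 9 animals were used per stage, that the fibres of each group went into 1 tube and that each group stands for 3 independent experiments, and the animals were of both sexes. As nothing in the labels ties an array to its own animals, p values measure the spread between these arrays, which may be technical. Axons, Schwann cells and other cells of the root are measured together, so fewer cells of a type and less RNA per cell cannot be told apart. The summed level of 7 markers of myelinating Schwann cells was 19.05 to 20.35 on the log2 scale over the 24 arrays, while that of 8 markers of sensory neuron cell bodies ran from 10.07 to 17.50.

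Complex I (NADH dehydrogenase) and complex II (succinate dehydrogenase) pass electrons to ubiquinone, complex III (the cytochrome bc1 complex) passes them to cytochrome c, and complex IV (cytochrome c oxidase) passes them to oxygen. Complexes I, III and IV pump protons out of the mitochondrial matrix, and complex V (ATP synthase) lets the protons return and makes ATP. Most subunits are encoded in the nucleus, while a small core is encoded in mitochondrial DNA. Several nuclear subunits of complex IV exist as paralogous isoforms that differ between tissues, with Cox6a2, Cox7a1 and Cox8b known from heart and skeletal muscle and Cox4i2 from lung and vessel wall. In nerve, ATP from this pathway drives the ion pumps and the transport that axons depend on.

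The members varied less than most probes. The range of the 8 group means had a median of 0.50 log2 units over the 83 members and of 1.12 over all tested probes, and it stayed under 1 log2 unit in 74 members (89.2%) against 43.7% of all tested probes. These are values of each member's brightest probe, whose level had a median of 14.67 over the members and 8.49 over all tested probes. The 39 other tested probes of the members' names, with a median level of 12.07, had a median range of 0.67, and 59% of them stayed under 1. In 18 of the 29 members with several probes in EN and in 20 in AN, the second brightest probe had the larger difference between P0 and 5 W. Ndufb8, for example, differed by -0.20 in AN with its brightest probe and by 1.20 with its other. The spread between arrays of a group was also small, with a median SD of 0.12 for the members and 0.26 for all tested probes. The 9 members whose group means ranged over more than 1 log2 unit were Cox6a2 (3.58), Cox7a1 (3.10), Cox8b (2.55), Cox7b2 (2.51), Atp5g1 (2.15), Ndufa13 (1.48), Cox4i2 (1.22), Cox6b2 (1.15) and Ndufa5 (1.06). Of these 9, 6 are isoforms of complex IV subunits. All members were above background on all 24 arrays with the exception of Cox7b2, a paralogue of Cox7b known from testis, which was above background on 2 of 3 arrays of EN at 5 W.

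**Figure D1:**
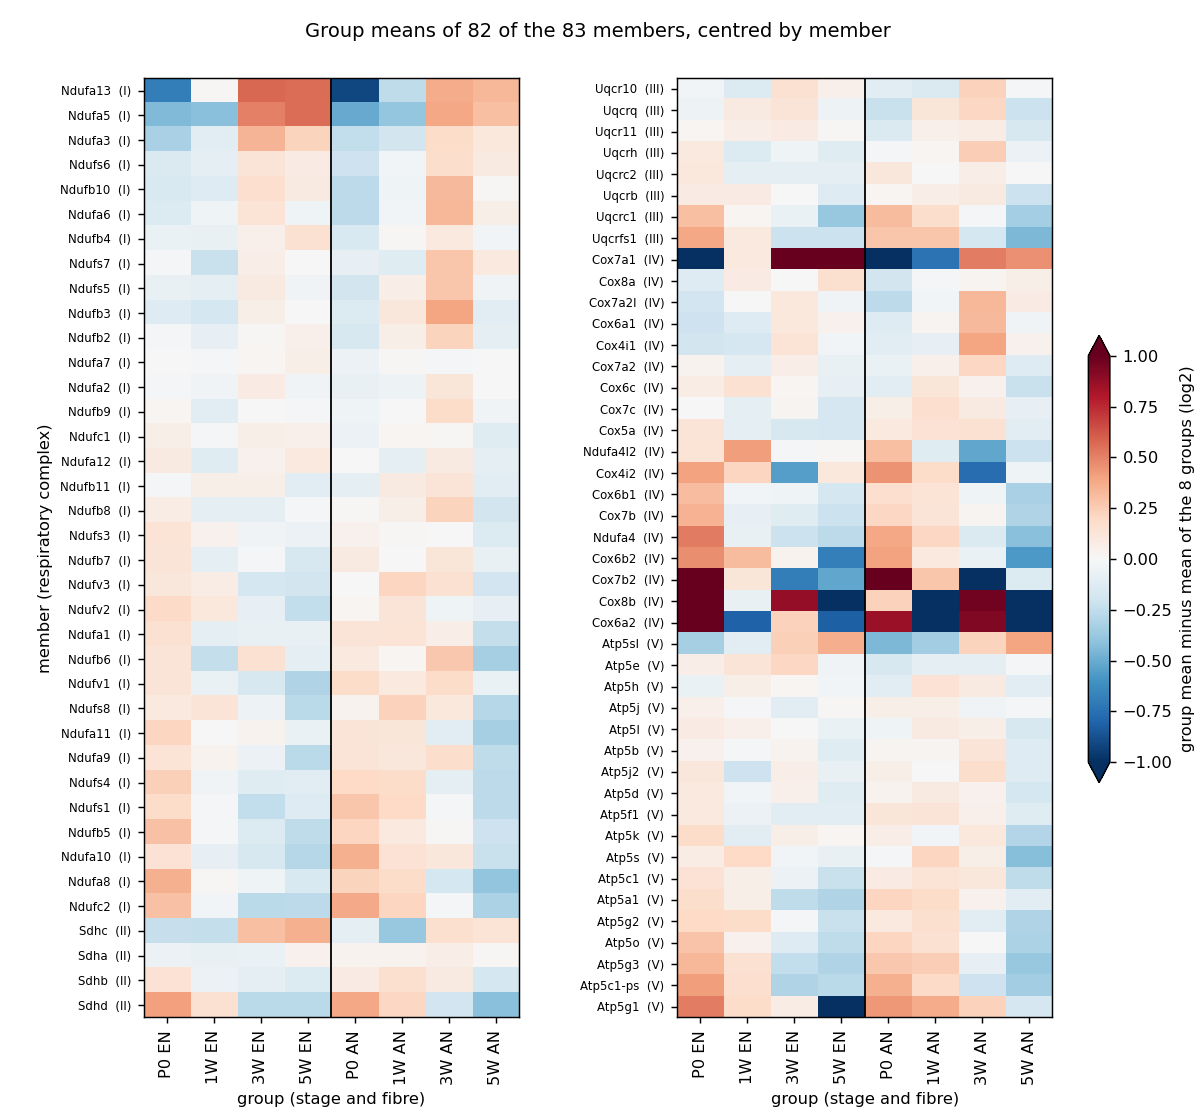
Group means of 82 of the 83 members, each centred on its mean over the 8 groups, in log2 units (colour, cut at 1 and -1), with EN and AN columns ordered by stage and members grouped by complex. Most rows are pale, and the strong colours belong to a few members such as Cox7a1, Ndufa13, Ndufa5, Cox6a2 and Cox8b.

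The comparison of 5 W with P0 asks how the pathway changed over postnatal development in each fibre. More members fell than rose in both fibres. In EN, 26 members (31.3%) were lower at 5 W and 7 (8.43%) were higher by limma at a Benjamini-Hochberg adjusted p below 0.05, where 26% of all tested probes were lower and 28.2% higher. In AN, 27 members (32.5%) were lower and 7 (8.43%) higher, where 24.2% of all tested probes were lower and 26.4% higher. The median difference of the members was -0.19 in EN and -0.18 in AN, against 0.04 and 0.03 for all tested probes. Lower calls were thus somewhat above the share of all probes and higher calls well below it, and most differences were small. The AN calls fell to 16 lower and 4 higher with 75th percentile scaling and to 13 lower and 4 higher in a fit of the arrays of the compared groups alone. In EN the same settings gave 18 lower and 7 higher, and 19 lower and 6 higher. Shares of all tested probes under these settings are not given here, so the excess of lower calls is stated for the main fit alone.

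Only slide 3 held arrays of P0 and 5 W, and within it 62 members were below 0 in EN (median -0.24, against 0.04 for all tested probes) and 64 in AN (median -0.28, against 0.02). These values rest on 1 array of 5 W per fibre, replicate 2, on which 51 members in EN and 57 in AN lay below both other arrays of the group.

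Markers of several other cell types changed over the same interval. All 5 markers of proliferating cells were lower in both fibres, with a median of -4.07 in EN and -4.49 in AN and a summed log2 level between 11.22 and 16.08 over the 24 arrays. Of 7 markers of myelinating Schwann cells, 5 were higher in EN and 7 in AN, of 6 macrophage markers, 6 and 5 were higher, and of 8 sensory neuron markers, 7 and 5 were lower. Of 5 motor neuron markers, 4 were lower in EN, and 3 were lower and 1 higher in AN. Of 5 fibroblast markers, 2 were higher and 1 lower in EN, and 2 were higher and 3 lower in AN. None of 6 erythroid markers was called. Over all tested probes 28.2% were higher and 26% lower in EN, and 26.4% and 24.2% in AN. The part of these cells in the members' differences was not tested.

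Most calls were shared by the fibres, among the members as over all tested probes. Of the members called lower, 20 were called in both, which is 76.9% of the EN calls and 74.1% of the AN calls. Of those called higher, Cox7a1, Ndufa13, Ndufa5, Atp5sl and Ndufa3 were called in both, which is 71.4% of each list. Over all tested probes, 77.3% of the EN and 83.1% of the AN lower calls were shared, and 78.2% and 83.3% of the higher calls. No member was called in opposite directions, 77 of 83 had a difference of the same sign, and 41 were called in neither fibre. The EN and AN arrays of a stage share slides and a collection, so the fibres are not independent of each other in this count.

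**Figure D2:**
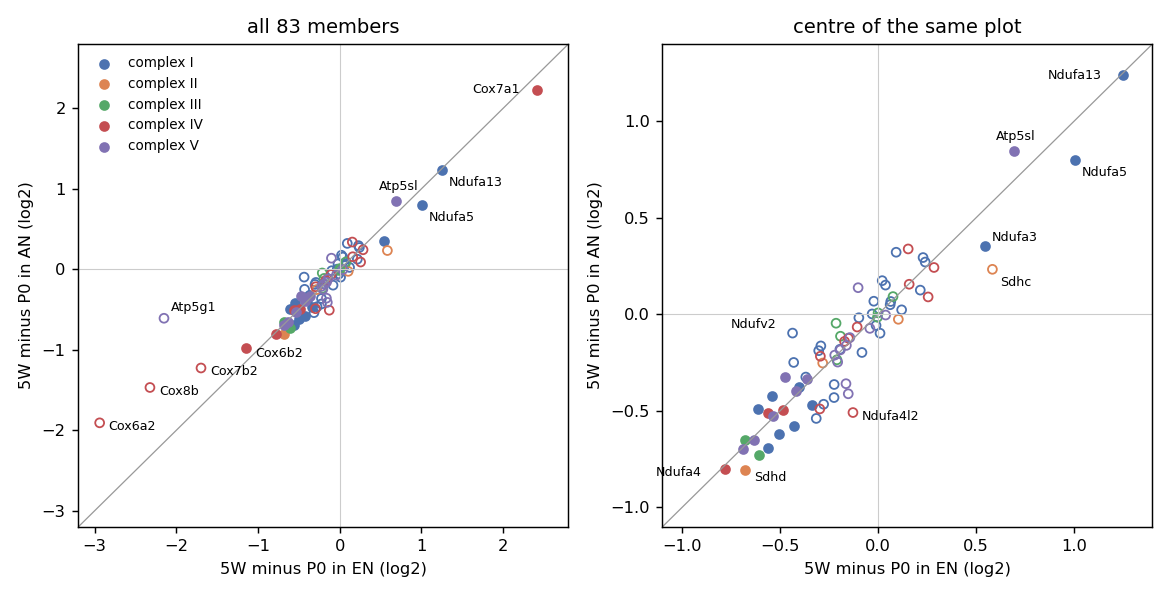
The 5 W minus P0 difference of each member in EN (horizontal, log2) against AN (vertical, log2), coloured by complex, filled where the difference was called in both fibres, with all 83 members on the left and the centre enlarged on the right. Points lie near the diagonal, with Cox7a1 at 2.41 and 2.23 and Ndufa13 at 1.25 and 1.24 farthest up, and Cox6a2 and Cox8b farthest down.

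Complex IV held the largest changes, in both directions. Cox7a1 encodes the heart and skeletal muscle isoform of subunit 7a. Its log2 values in EN were 11.31, 11.56 and 10.69 at P0 and 13.85, 13.28 and 13.66 at 5 W. In AN they were 11.04, 10.41 and 10.22 at P0 and 13.25, 12.04 and 13.07 at 5 W. All 5 W arrays lay above all P0 arrays in both fibres, and within AN at 5 W replicate 2 was the lowest. The rise was 2.41 ± 0.29 (SE, n = 3 per group, 5.33-fold, limma adjusted p = 1.17e-06) in EN and 2.23 ± 0.29 (4.70-fold, limma adjusted p = 3.09e-06) in AN. It was made by 3 W, with 1.25 from P0 to 1 W and 1.22 from 1 W to 3 W in EN and with 1.03 and 1.26 in AN, each passing the test. In AN the rise to 1 W did not pass without replicate 3 of P0 or without replicate 2 of 1 W (limma adjusted p = 0.0763 to 0.0803). Within slide 3 the change from P0 to 5 W was 2.16 in EN and 1.72 in AN. The ubiquitous isoform Cox7a2 differed by -0.11 in EN and -0.07 in AN, with overlapping arrays and no call.

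Of the 4 promoters below, the first is that of Cox7a1 and the others are those of members called lower in both fibres, so that the letters ahead of the most increased member and of fallen members can be read side by side. They are the 250 bases before the first listed transcript start of RefSeq (GRCm38.p6), and capitals mark a CCAAT box on either strand. The windows are Cox7a1 (chr7:30183921-30184170, plus strand), Ndufa4 (chr6:11907451-11907700, minus strand), Uqcrfs1 (chr13:30545317-30545566, minus strand) and Uqcrc1 (chr9:108936398-108936647, plus strand).
Cox7a1: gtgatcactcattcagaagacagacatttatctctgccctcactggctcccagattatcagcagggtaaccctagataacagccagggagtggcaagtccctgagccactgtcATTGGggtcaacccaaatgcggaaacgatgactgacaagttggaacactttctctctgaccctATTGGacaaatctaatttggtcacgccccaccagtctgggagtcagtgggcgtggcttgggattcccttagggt
Ndufa4: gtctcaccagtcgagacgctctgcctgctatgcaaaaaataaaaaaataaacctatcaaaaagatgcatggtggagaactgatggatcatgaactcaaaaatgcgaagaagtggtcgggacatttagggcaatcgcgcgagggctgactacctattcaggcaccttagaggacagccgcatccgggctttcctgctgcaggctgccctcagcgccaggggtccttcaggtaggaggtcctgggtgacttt
Uqcrfs1: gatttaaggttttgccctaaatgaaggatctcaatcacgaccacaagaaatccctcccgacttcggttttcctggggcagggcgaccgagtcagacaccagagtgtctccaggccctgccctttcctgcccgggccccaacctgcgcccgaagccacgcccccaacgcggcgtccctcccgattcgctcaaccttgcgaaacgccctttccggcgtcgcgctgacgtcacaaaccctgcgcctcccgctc
Uqcrc1: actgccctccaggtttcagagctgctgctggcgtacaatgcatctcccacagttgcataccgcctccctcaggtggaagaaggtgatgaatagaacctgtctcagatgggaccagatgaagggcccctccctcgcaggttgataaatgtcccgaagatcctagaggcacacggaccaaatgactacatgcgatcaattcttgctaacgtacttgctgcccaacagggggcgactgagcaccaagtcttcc
The Cox7a1 window holds CCAAT boxes, read as ATTGG on the strand shown, whose first letters lie 137 and 74 bases before the start. The windows of Ndufa4, Uqcrfs1 and Uqcrc1 hold none of the motifs searched, and an NRF1 core begins 31 bases after the start of Uqcrc1, outside the letters shown. The upstream windows of Ndufa13, Ndufa5, Atp5sl, Ndufa3, Cox6b2 and Sdhd overlap the span of an annotated gene and are not shown. A CCAAT box was in 6 of the 17 windows of members called lower in both fibres (35.3%, against 37.9% of all genes), Cox6b2 among them. The 4 windows shown thus do not stand for the risen and fallen members at large.

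The other muscle isoforms fell. Cox6a2, the heart and skeletal muscle isoform of subunit 6a, had EN values of 11.87, 12.98 and 11.58 at P0 and 9.60, 8.48 and 9.53 at 5 W. In AN its values were 11.70, 10.52 and 10.44 at P0 and 11.08, 7.57 and 8.28 at 5 W. The EN arrays did not overlap, whereas in AN replicate 1 at 5 W lay among the P0 arrays. The change was -2.94 ± 0.80 (SE, n = 3 per group, limma adjusted p = 0.0047) in EN, and the AN difference of -1.91 ± 0.80 did not pass (limma adjusted p = 0.0555). Cox8b, the muscle and brown fat isoform of subunit 8, differed by -2.32 ± 0.75 in EN (limma adjusted p = 0.014), a call lost without replicate 2 of P0 or without replicate 2 of 5 W (limma adjusted p = 0.0593 to 0.0609), and by -1.47 ± 0.75 in AN (limma adjusted p = 0.112).

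In EN, most markers of skeletal muscle were lower at 5 W, as were Cox6a2 and Cox8b. All 10 were tested, and from P0 to 5 W 6 were lower and 1 higher in EN, and 3 lower and 1 higher in AN. Acta1, skeletal muscle actin, changed by -4.21 in EN and -3.50 in AN, while Myh4, an adult fast myosin, rose by 5.95 and 7.13. The log2 of the summed level of the 10 markers was 16.94 to 18.24 in EN and 15.87 to 17.06 in AN at P0, 14.04 to 14.97 and 12.54 to 14.05 at 1 W, 15.05 to 15.94 and 14.59 to 17.78 at 3 W, and 14.44 to 15.47 and 13.29 to 17.32 at 5 W. Replicate 1 of AN at 5 W, the array with the high Cox6a2 value, had the highest sum of its group, 17.32. In EN the sum was lower on every 5 W array than on every P0 array, while Cox7a1 was higher on each. Of 7 markers of pericytes and vascular smooth muscle, 4 were higher in each fibre, among them Rgs5 by 1.25 in EN and 0.92 in AN, and 1 was lower in AN. Of 7 tested markers of brown adipocytes, 2 (28.6%) were lower and 1 higher in EN, with a median of -0.79. In AN 3 (42.9%) were lower and 1 higher, with a median of -1.08. Over all tested probes 26% were lower in EN and 24.2% in AN. The part of muscle, vessel or fat tissue in these differences was not tested.

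The ubiquitous isoforms of the same subunits moved far less. From P0 to 5 W, Cox6a1 differed by 0.26 in EN and 0.09 in AN, and Cox4i1 by 0.16 in each fibre, with no call. Cox8a rose by 0.29 in EN (limma adjusted p = 0.0277), a call lost without any 1 of 4 arrays, namely replicates 2 and 3 of P0 and replicates 1 and 3 of 5 W (limma adjusted p = 0.0506 to 0.0949), and differed by 0.24 in AN (limma adjusted p = 0.0611). Cox6b1 fell by 0.48 in EN and 0.49 in AN. Cox6b2, known from testis, fell by 1.15 ± 0.19 in EN and 0.98 ± 0.19 in AN, and no 5 W array of either fibre reached its P0 arrays. Ndufa4, once counted with complex I and now placed in complex IV, fell by 0.78 ± 0.26 in EN and 0.80 ± 0.26 in AN, and the EN call was lost without replicate 2 of P0 (limma adjusted p = 0.0566).

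Cox4i2, the isoform of subunit 4 known to respond to low oxygen, dipped at 3 W. Its EN values were 9.23, 8.76 and 9.04 at 1 W, 8.32, 8.17 and 8.27 at 3 W and 9.08, 9.01 and 8.62 at 5 W. In AN they were 9.04, 8.74 and 9.17, then 8.02, 8.09 and 7.98, then 8.87, 8.81 and 8.59. The 3 W arrays were below all 1 W and 5 W arrays of their fibre. The drop from 1 W to 3 W was -0.76 ± 0.15 in EN and -0.95 ± 0.15 in AN, and the return from 3 W to 5 W was 0.65 in EN (limma adjusted p = 0.0321) and 0.73 in AN (limma adjusted p = 0.0122). From P0 to 5 W, Cox4i2 differed by -0.30 in EN (limma adjusted p = 0.114) and by -0.49 in AN (limma adjusted p = 0.013). All 3 W arrays were on 1 slide that held no 1 W array, and with the slide or the scan as a fixed block the EN drop and the EN return no longer passed. The AN return did not pass with the scan as a block, and neither return passed with the arrays of the compared groups alone. The AN drop passed under all these settings. With the slide as a block, 1 W and 3 W are linked only through arrays of other stages on shared slides. The EN return also failed without any 1 of the 3 W arrays or without replicate 1 or 2 of 5 W (limma adjusted p = 0.0814 to 0.161), and the AN return without replicate 1 of 5 W (limma adjusted p = 0.0527).

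**Figure D3:**
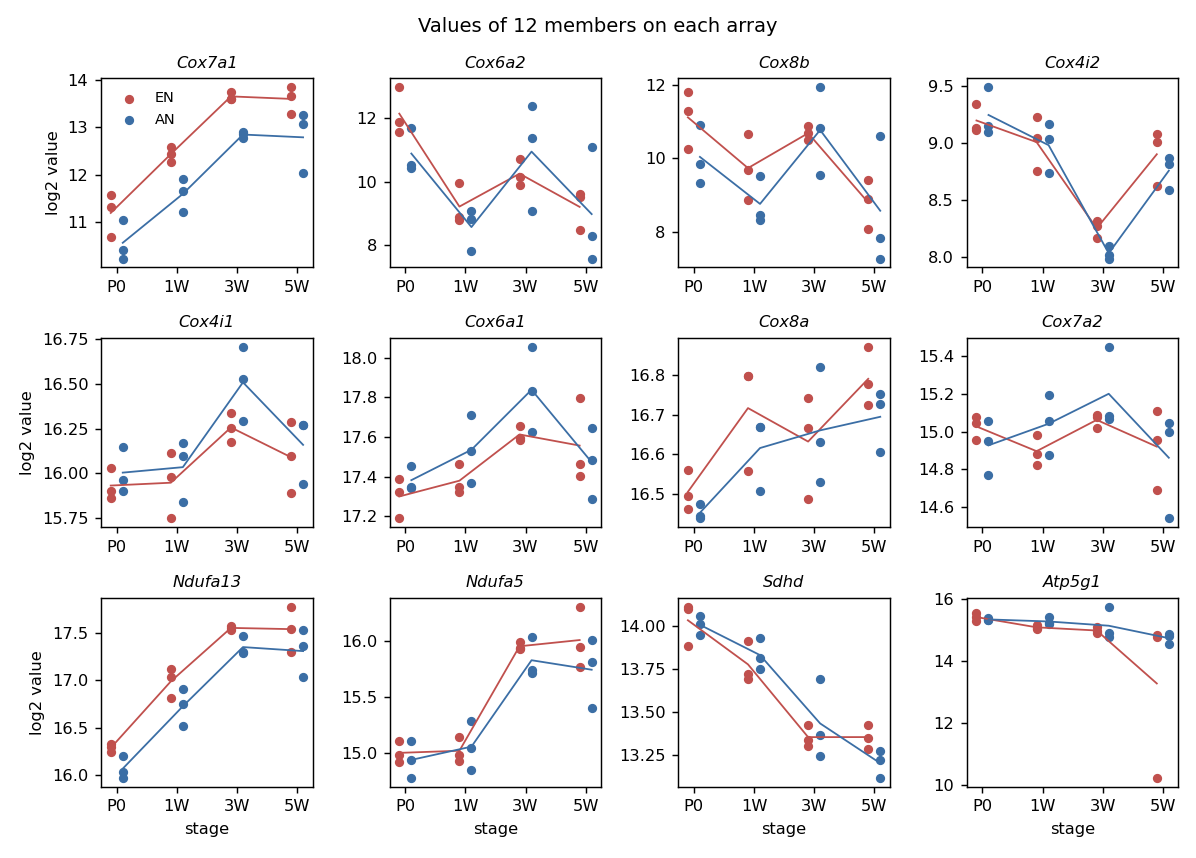
Log2 values of 12 members on each of the 24 arrays by stage, with EN in red and AN in blue, points for arrays and lines through the means of 3 arrays, each panel on its own vertical axis. Cox7a1, Ndufa13 and Ndufa5 climb in both fibres, Cox4i2 dips at 3 W, Cox6a2 and Cox8b scatter widely, and Atp5g1 has 1 low array in EN at 5 W.

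In complex I, 3 members were higher and 10 lower in EN from P0 to 5 W, and 4 were higher and 10 lower in AN, of 35. The lower calls, 28.6% in each fibre, were near the 26% and 24.2% of all tested probes, and the higher calls, 8.57% and 11.4%, were below the 28.2% and 26.4%. Ndufa13, an accessory subunit also known as Grim19, had EN values of 16.32, 16.29 and 16.24 at P0 and 17.54, 17.30 and 17.77 at 5 W. In AN it had 16.20, 16.03 and 15.97 at P0 and 17.36, 17.03 and 17.52 at 5 W. All 5 W arrays stood above all P0 arrays in each fibre. The rise was 1.25 ± 0.14 (SE, n = 3 per group, limma adjusted p = 7.52e-07) in EN and 1.24 ± 0.14 (limma adjusted p = 8.75e-07) in AN, and it was 1.03 in each fibre within slide 3. A second probe under the same gene name, 6349 bases away on chromosome 8 of mm9 (chr8:72411694-72411753 against chr8:72418102-72418161) and assigned to an Ensembl transcript, rose by 4.39 in EN and 4.03 in AN.

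Ndufa5, another accessory subunit, had EN values of 15.11, 14.98 and 14.92 at P0, 14.94, 15.15 and 14.99 at 1 W and 15.99, 15.94 and 15.93 at 3 W. It thus stayed level to 1 W and stepped up at 3 W. The step from 1 W to 3 W was 0.93 in EN and 0.77 in AN, of which the AN call was lost with the slide or the scan as a block, and the change from P0 to 5 W was 1.00 ± 0.16 and 0.80 ± 0.16. Ndufa3 rose by 0.54 in EN and 0.35 in AN with its brightest probe, but the mean of its tested probes fell by 0.25 in EN and 0.33 in AN, and it is 1 of 2 members, with Uqcrb, whose probes were called in opposite directions. The AN call of its brightest probe was also lost without replicate 3 of P0 or without replicate 1 or 3 of 5 W (limma adjusted p = 0.0852 to 0.181). Atp5sl carries the name of an ATP synthase gene, but its product is known as an assembly factor of complex I. It rose by 0.69 ± 0.13 in EN and 0.85 ± 0.13 in AN.

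The catalytic subunits Ndufv1 and Ndufs1 of complex I were each called lower in 1 fibre. Ndufv1, which binds NADH, fell by 0.43 in EN (limma adjusted p = 0.0253, and 0.0515 to 0.0974 without replicate 2 or 3 of P0 or replicate 1 of 5 W) and differed by -0.25 in AN (limma adjusted p = 0.192). Ndufs1, the largest iron-sulphur subunit, differed by -0.32 in EN (limma adjusted p = 0.0874) and fell by 0.54 in AN, where the mean of its tested probes was 0.04. Ndufc2, a membrane-arm subunit, fell by 0.56 in EN and 0.69 in AN, the lowest of complex I in AN.

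In complex II, 1 membrane anchor fell in both fibres and the other rose in EN. Sdhd had EN values of 14.10, 13.88 and 14.11 at P0 and 13.43, 13.29 and 13.35 at 5 W, and AN values of 14.06, 13.95 and 14.01 and of 13.27, 13.22 and 13.11. All 5 W arrays were below all P0 arrays, and the fall was 0.68 ± 0.11 in EN (limma adjusted p = 6.25e-05) and 0.81 ± 0.11 in AN (limma adjusted p = 1.03e-05). Its partner anchor Sdhc rose by 0.58 ± 0.13 in EN and differed by 0.23 ± 0.13 in AN (limma adjusted p = 0.134). Within slide 3 the Sdhc difference was 0.31 in EN and 0.02 in AN, and that of Sdhd was -0.71 and -0.76. With their brightest probes, the flavoprotein Sdha differed by 0.10 and -0.03 and the iron-sulphur subunit Sdhb by -0.28 and -0.25, with no call. The other Sdhb probe was called lower, at -0.33 in EN (limma adjusted p = 0.0414) and -0.51 in AN (limma adjusted p = 0.00299). A dimmer Sdha probe was called higher in AN (0.81, limma adjusted p = 0.00288) and not in EN (0.34, limma adjusted p = 0.166). The remaining Sdha probes were not called.

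In complex III, 2 of 8 members were lower in EN, 3 were lower in AN, and none was higher. These are 25% and 37.5%, beside 26% and 24.2% of all tested probes lower. Uqcrfs1, the Rieske iron-sulphur protein, fell by 0.61 ± 0.12 in EN and 0.73 ± 0.12 in AN. Uqcrc1, a core protein, fell by 0.68 ± 0.15 and 0.65 ± 0.15, while the other core protein Uqcrc2 differed by -0.19 and -0.11 with overlapping arrays.

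In complex V, 7 of 18 members (38.9%) were lower and 1 (5.56%) was higher in each fibre, beside 26% and 24.2% lower and 28.2% and 26.4% higher over all tested probes. These shares count names and not only subunits. The higher call was Atp5sl, named above as an assembly factor of complex I. The lower calls include the pseudogene name Atp5c1-ps in both fibres and Atp5s, listed as Dmac2l in RefSeq, in AN. The catalytic beta subunit Atp5b differed by -0.16 in EN and in AN with no call for its brightest probe. Its second brightest probe was called lower, at -0.29 in EN (limma adjusted p = 0.0375) and -0.36 in AN (limma adjusted p = 0.0126). The dimmest Atp5b probe was at -0.39 in EN (limma adjusted p = 0.0586) and called at -0.48 in AN (limma adjusted p = 0.0239). The alpha subunit Atp5a1 fell by 0.47 and 0.33 and the gamma subunit Atp5c1 by 0.36 and 0.33. The AN call of Atp5a1 was lost without any 1 of 4 arrays (replicates 2 and 3 of P0 and of 5 W, limma adjusted p = 0.0578 to 0.0998). That of Atp5c1 was lost in EN without replicate 2 of 5 W (0.0503) and in AN without replicate 3 of P0 or replicate 1 or 2 of 5 W (0.051 to 0.069). The probe named Atp5c1-ps, for a pseudogene copy of the gamma subunit that may share sequence with Atp5c1, fell by 0.69 and 0.70. The c ring is encoded by Atp5g1, Atp5g2 and Atp5g3, whose mature proteins are identical. Atp5g2 fell by 0.42 in EN and 0.39 in AN, and Atp5g3 by 0.63 and 0.65.

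The largest value in complex V rests on 1 spot. Atp5g1 had EN values of 15.30, 15.56 and 15.42 at P0 and 14.85, 14.78 and 10.21 at 5 W, the last being far below every other array. The fitted fall was 2.15 ± 0.74 (limma adjusted p = 0.0197), and without replicate 3 of 5 W it was 0.62 ± 0.21 (limma adjusted p = 0.019). Without replicate 2 of P0 it was 2.09 and did not pass (limma adjusted p = 0.0504). A second Atp5g1 probe fell by 0.63 in EN and 0.84 in AN, and another probe, about as bright, differed by -0.22 in EN (limma adjusted p = 0.541) and 0.07 in AN (limma adjusted p = 0.86).

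The steps between stages show when the members moved. From P0 to 1 W, 2 were higher and 4 lower in EN, against 15.5% and 11.6% of all tested probes, and 2 were higher and 1 lower in AN, against 12.3% and 9.35%. From 1 W to 3 W, 6 were higher and 4 lower in EN (13.2% and 14.2% of all tested probes), and 12 were higher and 5 lower in AN (14.6% and 15.3%). From 3 W to 5 W, Cox4i2 was higher in EN and no member was lower (1.45% and 0.805%), and in AN Cox4i2 was higher and Atp5s, named as subunit s of ATP synthase, was lower (2.19% and 1.48%). The Atp5s call was lost in 16 of 24 fits that each left out 1 array, and the lower Cox6a2 call in AN at 1 W also in 16 (limma adjusted p = 0.0534 to 0.141 and 0.0502 to 0.163). No slide held both 1 W and 3 W arrays. The highest of the 4 stage means was that of P0 in 47 members in EN and 27 in AN, where that of 3 W was the highest in 37. The lowest was that of 5 W in 38 members in EN and 53 in AN.

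Replicate 3 of AN at 3 W stood apart and bore on the AN steps. On it, 73 of 83 members lay above both other arrays of the group, and the median member was 0.33 above its mean over 24 arrays, while all tested probes stood at -0.08. The same array had the highest summed level of sensory neuron markers of its group, 17.50 against 12.27 and 12.63, and of motor neuron markers, 15.96 against 10.98 and 11.41. The motor neuron list is not particular to motor fibres here. Of its 5 tested genes, 2 were higher in AN than in EN at 1 W and none was lower. Without replicate 3 of AN at 3 W, 8 members were higher and 16 lower in AN from 1 W to 3 W. Over all tested probes 16.1% were higher and 16.7% lower in that fit. The median of the members moved from -0.01 to -0.11, against 0.03 for all tested probes. The highest AN stage mean was then that of P0 in 34 members and that of 3 W in 21, and the lowest was that of 5 W in 47. From 3 W to 5 W the AN median was -0.24 with this array and -0.11 without it. Cox5a, for example, read 15.08, 15.16 and 16.00 in that group. Replicate 2 of AN at 5 W lay low, with 57 members below both other arrays. The part of neuronal RNA in these values was not tested.

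**Figure D4:**
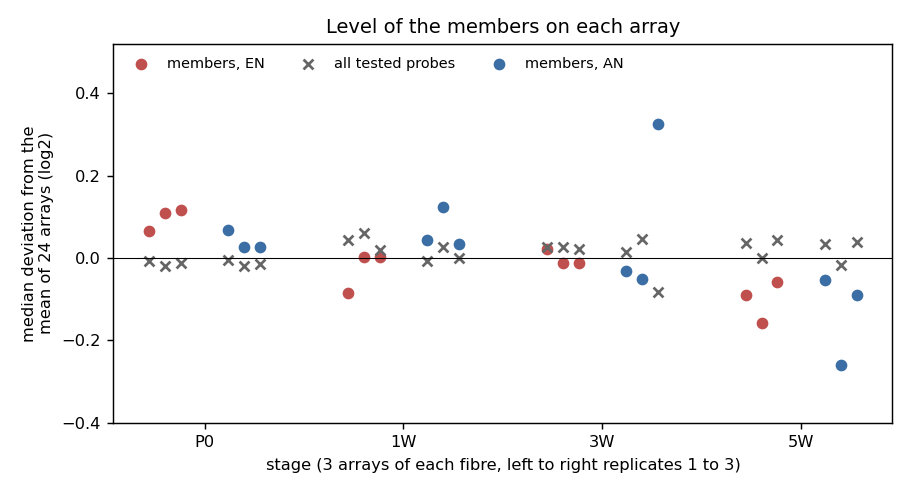
Median over the 83 members of each array's deviation from the mean of the 24 arrays in log2 units (circles, red for EN and blue for AN), with the same median over all tested probes (crosses), by stage. The members of replicate 3 of AN at 3 W sit at 0.33, above all other arrays, and those of replicate 2 of AN at 5 W at -0.26, below all others.

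AN and EN were compared at each stage to ask whether motor and sensory roots differ in the pathway. No member passed in limma's unpaired fit. At P0, 0 of 83 were higher or lower, with 0.222% and 0.516% of all tested probes higher and lower and 1 member at an unadjusted p below 0.05. At 1 W it was 0 of 83 (2.74% and 1.26% of all probes, 3 members unadjusted), at 3 W 0 of 83 (3.07% and 2.82%, 8 members unadjusted) and at 5 W 0 of 83 (3.52% and 3.24%, 2 members unadjusted). The median AN minus EN difference of the members was -0.06 at P0 and again at 5 W, and 0.09 and 0.08 at the stages between. From P0 on, the difference was above 0 in 17, 63, 65 and 24 members, and the 3 W median was -0.02, with 34 members above 0, when replicate 3 of AN was left out. Within the slides the median was -0.01 and -0.10 at P0, 0.11, 0.13 and 0.02 at 1 W and -0.01, -0.13 and -0.08 at 5 W. Over all tested probes it was 0.0007 and 0.0078, then -0.08, -0.05 and -0.05, then -0.03, -0.05 and -0.03.

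AN and EN arrays of the same number deviated together within a stage, and with each pair as a block more members passed. At P0 there were none (3.85% of all tested probes in either direction, 3 members at an unadjusted p below 0.05). At 1 W there were 3 lower in AN (10.8% of all tested probes), at 3 W 3 higher and 2 lower (21.1%) and at 5 W 4 lower (23.5%). The share of members was below that of all tested probes at every stage.

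Cox7a1 was lower in AN in every pair at all 4 stages. Its pair differences were -0.28, -1.15 and -0.47 at P0, -0.80, -0.67 and -1.06 at 1 W, -0.88, -0.83 and -0.71 at 3 W, and -0.60, -1.25 and -0.59 at 5 W. The AN value was below the EN value of its pair throughout, by 0.28 to 1.25 log2 units. The mean difference was -0.63 at P0, not passing, -0.84 ± 0.17 at 1 W (SE, n = 3 pairs, limma adjusted p with pairs as a block = 0.0152, without 0.130), -0.81 ± 0.17 at 3 W (0.0108, without 0.111) and -0.81 ± 0.17 at 5 W (0.00949, without 0.102).

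Ndufa4l2, a paralogue of Ndufa4 known to be induced at low oxygen, was lower in AN in each pair from 1 W on. Its mean difference was 0.16 at P0, -0.54 at 1 W (limma adjusted p with pairs as a block = 0.0216), -0.51 at 3 W (0.0163) and -0.22 at 5 W, the last not passing. Ndufa13 was lower in AN in all 12 pairs, and passed at 1 W with -0.26 and at 5 W with -0.23 (limma adjusted p with pairs as a block = 0.0342 and 0.032). At 3 W, Cox4i1, Cox7a2l and Uqcrh, the hinge protein of complex III, were higher in AN by 0.25, 0.23 and 0.29. Without replicate 3 of AN, left out after the data were seen, the differences were 0.15, 0.26 and 0.16 with pairs as a block, and none passed (limma adjusted p = 0.179, 0.0542 and 0.236). Ndufa4l2 at 3 W was then -0.32 and did not pass either (limma adjusted p = 0.073), while Cox7a1 at -0.86 did (limma adjusted p = 0.0341). At 5 W, Atp5s and Sdhc passed with AN minus EN differences of -0.35 and -0.22.

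**Figure D5:**
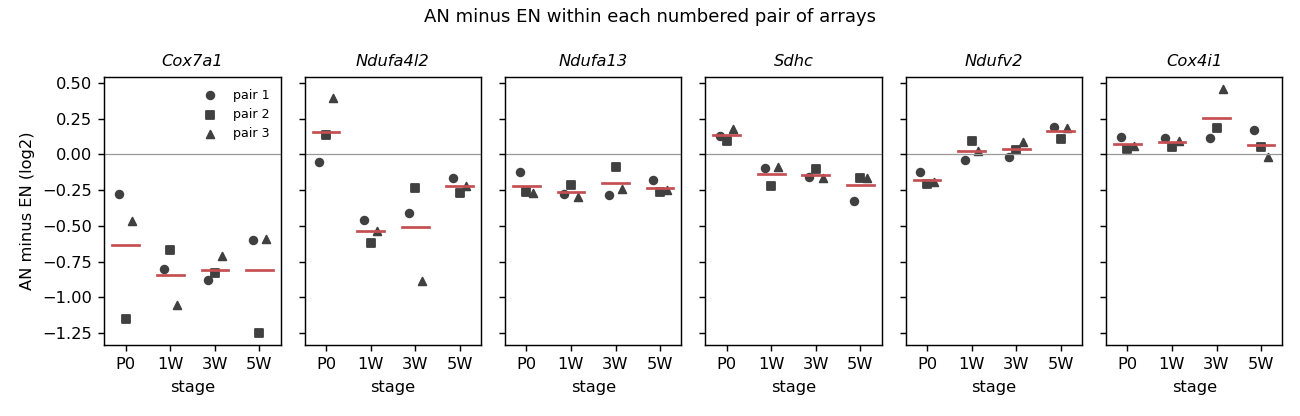
AN minus EN difference (log2) within each numbered pair of arrays for 6 members by stage, with a symbol per pair and a red bar at the mean of 3 pairs. Cox7a1 and Ndufa13 lie below 0 in every pair, Sdhc goes from above 0 at P0 to below 0 later, and Ndufv2 goes from below 0 at P0 to above 0 at 5 W.

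The change of the AN minus EN difference since P0 was tested as an interaction. At 1 W the members' median shift was 0.14, above 0 in 74 of 83, but 0 were called higher or lower (0.022% and 0.0412% of all tested probes, 1 member at an unadjusted p below 0.05), and none with pairs as a block (0.736%). The members share arrays, so their signs are not independent of each other. At 5 W the median shift was 0.01 and 0 were called (0.689% and 0.45%, 1 member unadjusted). With pairs as a block, Ndufv2, a complex I subunit beside the NADH site, and Sdhc passed at 5 W, against 6.77% of all tested probes. Ndufv2 had pair differences of -0.12, -0.21 and -0.19 at P0 and 0.20, 0.11 and 0.19 at 5 W, a shift of 0.34 ± 0.09 (limma adjusted p with pairs as a block = 0.0455). Sdhc had 0.13, 0.09 and 0.18 at P0 and -0.32, -0.16 and -0.16 at 5 W, a shift of -0.35 ± 0.09 (0.0484). In both, the pairs of P0 and of 5 W lay on opposite sides of 0.

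Other genes of the pathway were counted from fixed lists over the same comparison of 5 W with P0. Of 46 tested assembly factors, 14 were higher and 13 lower in EN, and 8 were higher and 13 lower in AN. In EN these are 30.4% and 28.3%, near the 28.2% and 26% of all tested probes, and in AN 17.4% and 28.3%, against 26.4% and 24.2%. Lyrm7, a chaperone of the Rieske protein, rose by 2.13 in EN and 2.03 in AN while its client Uqcrfs1 fell. Coa4 rose by 1.52 and 1.74 and Surf1, an assembly factor of complex IV, by 0.87 and 1.05, whereas Cox10, which makes heme for complex IV, fell by 0.69 and 0.81.

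Of the 13 subunits encoded in mitochondrial DNA, 11 had a tested probe. In EN 1 was higher (ND4, 0.44) and 1 lower (ND1, -0.83), and in AN 3 were lower (ND1, -1.68, ND5, -0.65, and ATP8, -0.66), beside 24.2% of all tested probes lower. Replicate 3 of AN at 5 W stood apart, with a log2 summed level of these subunits of 18.99 against 19.71 and 19.90. Without it the AN differences were -1.30, -0.57 and -0.51, each still passing (limma adjusted p = 0.000254, 0.0228 and 0.0408). The probe named ND3 lies on chromosome 1 of mm9 and not on mitochondrial DNA. Between fibres, ND5, ATP8 and ND4L were lower in AN at 3 W and ND5 (-0.89, limma adjusted p = 0.00389) and ATP8 (-0.79, limma adjusted p = 0.0132) at 5 W. Without that array the 5 W differences were -0.81 for ND5 and -0.63 for ATP8 (limma adjusted p = 0.0144 and 0.049).

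Of 21 tested regulators of mitochondrial biogenesis, 3 were higher and 8 lower in EN and 5 were higher and 7 lower in AN. Higher calls were 14.3% in EN and 23.8% in AN, beside 28.2% and 26.4% of all tested probes, and lower calls 38.1% and 33.3%, beside 26% and 24.2%. Esrra, a nuclear receptor that drives these genes, rose by 1.51 in EN and 1.61 in AN. Nrf1 fell by 0.86 and 0.53, Gabpa by 0.89 and 0.90 and Tfam, which packages and transcribes mitochondrial DNA, by 0.60 and 0.62, while the coactivator Ppargc1a differed by -1.03 and -0.05 with no call. Of 14 carriers, 2 were higher and 5 lower in EN and 3 were higher and 6 lower in AN, so that 14.3% and 21.4% were higher and 35.7% and 42.9% lower in EN and AN. The adenine nucleotide carrier Slc25a5 fell by 1.12 and 1.27, cytochrome c (Cycs) fell by 0.49 and 0.53, and the pyruvate carrier subunit Mpc1 rose by 0.77 and 0.75. Of 17 enzymes of the tricarboxylic acid cycle and pyruvate dehydrogenase, 2 were higher and 4 lower in EN and 2 were higher and 7 lower in AN, so that 11.8% were higher in each fibre and 23.5% and 41.2% lower. Citrate synthase (Cs) fell by 0.39 and 0.33, and Suclg2 fell by 1.39 in AN and differed by -0.24 in EN.

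Promoter windows of 300 bases, 250 before and 50 after the first listed RefSeq start, were found for 68 members, and motifs were searched on both strands. The NRF1 core CGCATGCG was in 8 windows (11.8%, against 1.9% of 27025 windows of all genes), the ETS core CCGGAAG in 15 (22.1% against 9.1%), the YY1 core AAGATGGC in 10 (14.7% against 2.9%), the ERR core AAGGTCA in 8 (11.8% against 4.7%) and the CCAAT box in 31 (45.6% against 37.9%). No motif contains another, although the ETS core ends in the letters AAG with which the YY1 core and the ERR core begin. Among the 17 windows of members called lower in both fibres, 3 held the NRF1 core, 2 the ETS core, 2 the YY1 core, 2 the ERR core and 6 the CCAAT box. Among the 5 windows of members called higher in both, 2 held the YY1 core and 3 the CCAAT box.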

How the data were processed

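The authors deposited 24 scanner files and 1 table. In the scanner files the authors deposited, spot intensity was background-subtracted and detrended by Agilent Feature Extraction 10.7.1.1 (per the submitters' processing notes), with marks for outliers, saturation and spots well above background. The authors' table holds log2 values made by quantile normalization in GeneSpring (per their methods), and these were used. An array's median signal lay between 45.4 and 191 and its local background between 23 and 46, and the number of arrays limits precision. Before normalization the median signal differed between stages. It was 122 to 191 at P0, 88.3 to 147 at 1 W, 51.4 to 73.5 at 3 W and 45.4 to 171 at 5 W. The group of each array came from its deposited label, and columns were matched to arrays by the sample identifier that heads each.

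The 36409 gene probes well above background on all 3 arrays of a group were fitted with limma 3.58.1 (R 4.3.3), with 8 group means and eBayes moderation. Benjamini-Hochberg adjustment ran over all tested probes of each of 14 comparisons, and an adjusted p below 0.05 was a call. The code was tested on simulated data. Same-numbered AN and EN arrays of a stage deviated together (r of 0.107 to 0.646 in 12 of 12 pairs, which also share a slide), so values with the pair as a block are given where calls change. Alternatives were other scalings, filters, blocks and left-out arrays.

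The members and lists were chosen with earlier results of these data known. Genes named are fixed isoforms and core subunits, in each fibre and complex the highest and lowest 5 W minus P0 difference, and others where a call or count fell on few members, chosen after their values were seen. Cox5b has no probe of that name, and a gene that the rule names is counted but not otherwise reported here. Python 3.11.15 with matplotlib 3.10.9 drew the figures.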

Additional observations from a re-analysis of the deposited data

Results flagged for a closer look

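With numbered pairs as a block, the AN minus EN difference of 2 members at 5 W differed from that at P0 by the interaction test. In that fit 6.77% of all tested probes were called, so the share of members was below that of all tested probes. For Ndufv2 the shift was 0.34 (0.339 before rounding, limma adjusted p = 0.0455), and all 3 pairs were below 0 at P0 and above 0 at 5 W. For Sdhc it was -0.35 (-0.3504 before rounding, limma adjusted p = 0.0484), and all 3 pairs were above 0 at P0 and below 0 at 5 W. Neither passed without the block.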

How the results depend on the processing

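Over the comparison of 5 W with P0, 20 of 33 calls in EN and 13 of 34 in AN were kept under all 11 alternatives and in all 24 fits without 1 array. Without 1 array, the number of members called ran from 27 to 37 in EN 5W-P0, 27 to 42 in AN 5W-P0, 3 to 11 in EN 1W-P0, 1 to 3 in AN 1W-P0, 7 to 13 in EN 3W-1W, 11 to 24 in AN 3W-1W, 0 to 2 in EN 5W-3W, 1 to 4 in AN 5W-3W, and 0 to 1 in AN against EN at 1 W and 3 W. With numbered arrays as a replicate block, members called were 3, 5 and 4 in AN against EN at 1 W, 3 W and 5 W, 2 in the 5 W interaction and 4 in AN 5W-3W. Between stages the numbers pair nothing (median r of 0.035). With the slide as a block the 3 stages gave 2, 1 and 2, and there were 15 in EN 1W-P0, 3 in EN 3W-1W, 2 in EN 5W-3W and 7 in AN 3W-1W. With the scan as a block they were 1, 1 and 1, then 10, 3, 2 and 5, and 0 in AN 5W-3W. With array weights they were 5 at 1 W, 2 at 3 W, 18 in EN 1W-P0, 31 in EN 3W-1W, 2 in EN 5W-3W, 7 in AN 1W-P0 and 39 in AN 3W-1W. With the arrays of the compared groups alone they were 1 at 3 W, 17 in EN 3W-1W, 0 in EN 5W-3W, 6 in AN 3W-1W, 0 in AN 5W-3W and 17 in AN 5W-P0. With the mean of a gene's probes they were 1 at 1 W, 16 in EN 3W-1W, 2 in EN 5W-3W and 5 in AN 1W-P0. With 75th percentile scaling they were 3 in EN 1W-P0, 9 in AN 3W-1W, 1 in AN 5W-3W and 20 in AN 5W-P0. Normexp, or probes above background on all arrays, gave 2 in EN 5W-3W, and no filter on dim probes, or subunit names alone, gave 1 in AN 5W-3W. With the study's thresholds (unadjusted p and 2-fold) they were 2 in EN 1W-P0, 1 in EN 3W-1W, 2 in EN 5W-3W, 8 in EN 5W-P0, 3 in AN 3W-1W and 3 in AN 5W-P0. Without replicate 3 of AN at 3 W and replicate 2 of AN at 5 W together, chosen after seeing the data, they were 1 at 1 W, 11 in EN 1W-P0, 16 in EN 3W-1W, 2 in EN 5W-3W, 27 in AN 3W-1W and 0 in AN 5W-3W. With the mean of probes Ndufa3 reversed (EN 3W-1W -0.0381, EN 5W-P0 -0.25, AN 3W-1W -0.0876, AN 5W-P0 -0.33), as did Ndufs1 in AN 5W-P0 (0.0384), and with the slide as a block Uqcr10 in AN 3W-1W (-0.0237). The cause was not tested.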
